A study of Arabidopsis thaliana with 6 samples.

Results

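Mitotic cyclins and cyclin-dependent kinases were followed in endosperm nuclei of Arabidopsis thaliana. The set holds 10 of the 33602 loci of the deposited expression table, chosen by locus number: the A-type kinase gene CDKA;1 (AT3G48750), the B-type kinase genes CDKB1;1 (AT3G54180), CDKB1;2 (AT2G38620), CDKB2;1 (AT1G76540) and CDKB2;2 (AT1G20930), and the cyclin genes CYCB1;1 (AT4G37490), CYCB1;2 (AT5G06150), CYCB1;4 (AT2G26760), CYCB2;1 (AT2G17620) and CYCA1;1 (AT1G44110). All 10 names were found in the annotation, 2 of them as synonyms (of CDC2 and CYC1BAT). All 10 had a mean of at least 1 RPKM (reads per kilobase of gene, scaled to the reads of the library) and were tested.

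The samples were F1 endosperm at 4 days after pollination, whose nuclei were purified by INTACT, a capture of nuclei through a tag on their envelope. One parent was Landsberg erecta (Ler, L). The other was TEmob (Cm), a Columbia-0 line with the INTACT tag that descends from seeds treated with 40 µM zebularine and α-amanitin and kept at 37 °C. Haploid offspring of a cross of that line with cenh3 CENH3-TAILSWAP plants were doubled with colchicine to give it. In Cm x L, TEmob was the mother and Ler the father, and in L x Cm the mother was the Ler mutant pi-1 and the father TEmob. Each direction had 3 libraries of poly(A) RNA. Every library carries a TEmob genome from 1 parent, so what is compared is the direction of crossing. That direction fixes which accession gave the larger maternal genome dose, which parent brought the tag and whether the mother was the pi-1 mutant. TEmob is 1 diploid line, and whether replicates came from separate plants is not stated, so the p-values reflect only the scatter of these samples, part of which could be technical. The RPKM steps of low pseudogenes gave a depth of about 21198977 to 29218641 reads per library, and about 36 (CYCB2;1) to 2287 reads (CYCB1;2) lay behind a value of the 10 genes. Pearson correlations of log2(RPKM + 1) over the tested loci were 0.903 to 0.977 within a cross and 0.831 to 0.883 between crosses, and 1005 to 10084 loci were at 0 in a library, most in Cm x L replicate 3.

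Cyclin-dependent kinases drive the cell cycle once they bind a cyclin. CDKA;1 is the plant counterpart of the yeast and animal kinase CDK1 and acts in both S phase and mitosis. The B-type kinases are a plant-specific class whose transcripts accumulate from S phase to mitosis (CDKB1) or around G2 and mitosis (CDKB2). B-type cyclins are made for mitosis and destroyed before it ends, and the A1-type cyclin peaks near the same time. Early endosperm divides its nuclei without dividing the cytoplasm, as a syncytium, and later forms cell walls. Many genes of G2 and mitosis carry the mitosis-specific activator element, whose core AACGG is bound by three-repeat MYB factors.

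The promoters differed in this core. It was searched on both strands in the 250 bases before the annotated start of each gene (RefSeq annotation, TAIR10.1). Of 27443 protein-coding promoters of that length, 20.6% held at least 1 core and 3.62% at least 2. Among the 10 genes, 5 held at least 1 and 4 at least 2. They were AT5G06150 with 4 matches, AT4G37490 and AT2G17620 with 3 each, AT1G44110 with 2 and AT1G20930 with 1. No match was found for the CDKB1 kinases, AT3G48750 or AT2G26760. A match is a description of these letters in this window and not a mapped site. The promoter of AT5G06150 is shown for having the most matches and the 1 negative difference between the crosses. Those of AT4G37490, a cyclin of the same class, and AT1G20930, the B-type kinase with a match, are shown for comparison. They lie at chr5:1861704-1861953 (minus strand), chr4:17624309-17624558 (minus) and chr1:7294747-7294996 (minus), and capitals mark the core or its reverse complement.
CYCB1;2: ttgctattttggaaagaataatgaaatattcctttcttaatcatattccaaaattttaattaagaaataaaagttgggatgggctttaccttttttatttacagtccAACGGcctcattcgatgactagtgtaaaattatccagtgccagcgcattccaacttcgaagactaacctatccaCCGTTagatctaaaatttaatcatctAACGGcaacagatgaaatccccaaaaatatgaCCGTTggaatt
CYCB1;1: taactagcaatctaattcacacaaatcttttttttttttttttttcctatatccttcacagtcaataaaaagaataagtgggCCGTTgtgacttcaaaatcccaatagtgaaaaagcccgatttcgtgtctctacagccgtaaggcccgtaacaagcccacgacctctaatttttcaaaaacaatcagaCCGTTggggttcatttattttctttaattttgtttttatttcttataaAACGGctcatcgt
CDKB2;2: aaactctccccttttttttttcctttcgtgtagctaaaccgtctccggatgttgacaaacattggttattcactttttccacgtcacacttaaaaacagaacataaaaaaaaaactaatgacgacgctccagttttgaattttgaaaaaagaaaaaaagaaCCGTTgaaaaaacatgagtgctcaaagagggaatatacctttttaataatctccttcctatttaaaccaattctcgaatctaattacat

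In AT5G06150 the cores began 143, 69, 43 and 11 bases before the start, and the windows around the first and last are tatttacagtccAACGGcctcattcgatg and ccaaaaatatgaCCGTTggaatt. In AT2G17620 they began at 137, 85 and 56 bases, with ccctcatgatccAACGGttatattctaaa around the middle one (chr2:7663958-7663986, plus strand). The 2 matches of AT1G44110, at 205 and 182 bases, sit in a short repeat: the end of cccaaaaggtgaCCGTTtgaaattcgaat overlaps the start of tcgaatttatttCCGTTtgaaattcgaat (chr1:16777541-16777569 and chr1:16777518-16777546, minus strand).

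Between the crosses, Cm x L had the higher level for 3 of the 10 genes, all B-type kinases, and the lower level for 0 (limma on log2(RPKM + 1), Benjamini-Hochberg adjusted p under 0.05 over all tested loci). In these bulk samples, a larger share of dividing nuclei in Cm x L and more RNA of these genes per nucleus cannot be told apart. At an unadjusted p under 0.05 there were 5 higher and 0 lower. Of all 26620 tested loci, 6.73% were called higher and 18.3% lower. Among loci averaging 20 RPKM or more, where 5 of the 10 genes lie, 14.1% were called higher, and of loci between 5 and 20 RPKM 6.35%. The difference was positive for 9 genes and negative for 1, with a median log2 difference of 0.69, beside −0.22 over all tested loci and 0.14 over loci of at least 20 RPKM. The 3 libraries of Cm x L lay above all 3 of L x Cm for 4 genes, and below them for 0. Over all tested loci these shares were 15.7% and 29.8%, and the first was 29.6% at 20 RPKM or more and 16.8% between 5 and 20 RPKM. The genes were chosen with earlier results of these data known, so the counts describe them and show nothing particular to them.

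**Figure D1:**
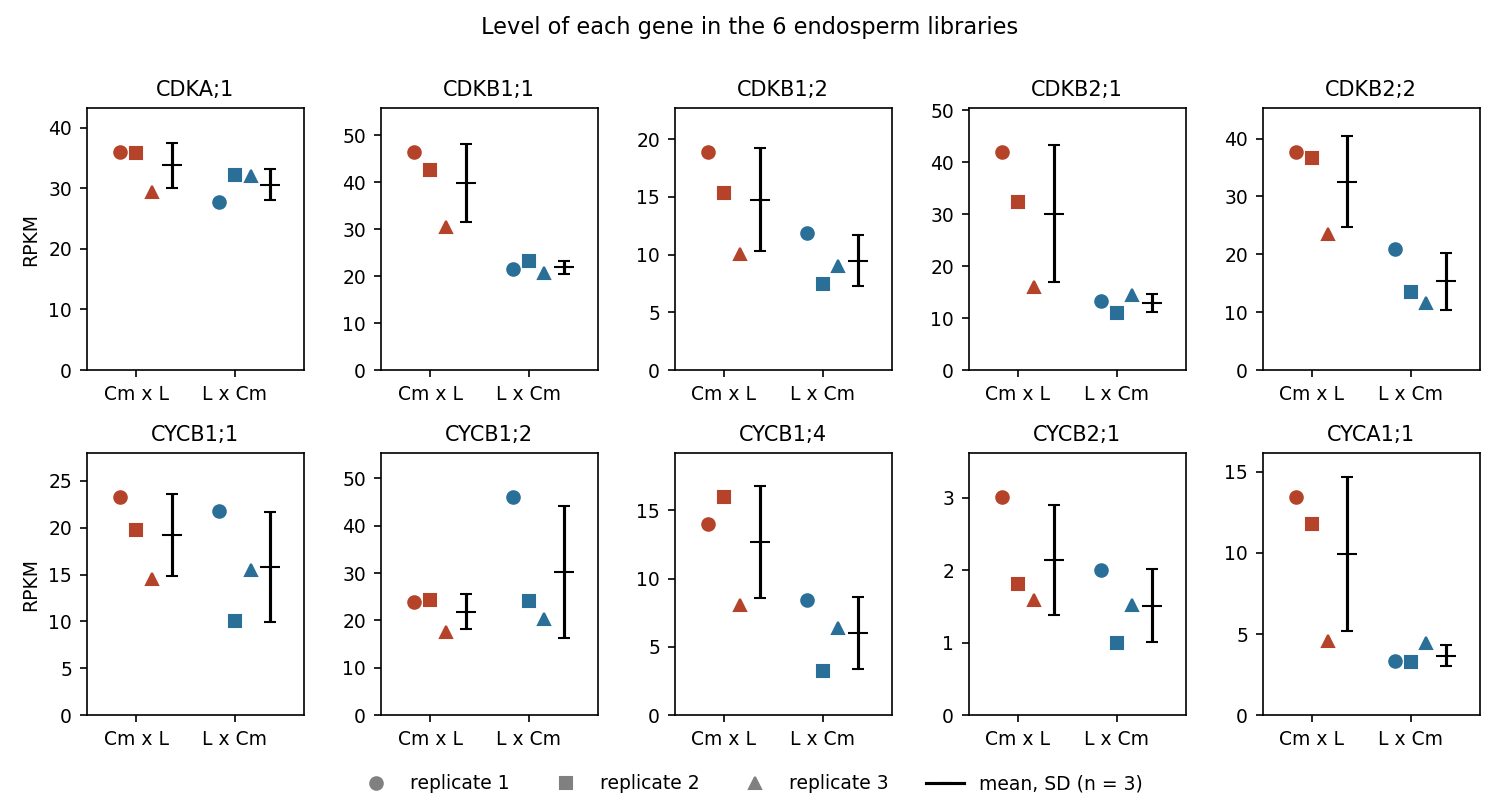
Level of each of the 10 genes in RPKM (vertical axis, from 0, its range set for each gene) in the 3 Cm x L and 3 L x Cm libraries. Symbols mark the replicate and bars the mean with SD (n = 3). The libraries of the crosses do not overlap for 4 genes, and Cm x L replicate 3 is the lowest of its cross for all 10.

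CDKA;1 (AT3G48750) had 35.99, 35.9 and 29.4 RPKM in replicates 1, 2 and 3 of Cm x L and 27.7, 32.1 and 31.9 RPKM in those of L x Cm. The crosses overlapped, with means of 33.8 ± 3.75 and 30.6 ± 2.502 RPKM (SD, n = 3 per cross, as in all values below). The log2 difference, the smallest in size of the 10, was 0.14 with an SE of 0.16 (limma adjusted p = 0.55). Its sign turned under median-of-ratios scaling, to −0.015.

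Of the 4 B-type kinases, 3 were higher in Cm x L. CDKB1;1 had 46.5, 42.6 and 30.4 RPKM in Cm x L and 21.4, 23.3 and 20.8 RPKM in L x Cm. All 3 L x Cm libraries lay close together and below the lowest Cm x L library. The means were 39.8 ± 8.38 and 21.8 ± 1.32 RPKM, a 1.76-fold difference on the log2(RPKM + 1) scale (log2 difference 0.82, SE 0.19, limma adjusted p = 0.022).

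CDKB2;1 had 42.0, 32.3 and 16.0 RPKM in Cm x L and 13.3, 10.99 and 14.5 RPKM in L x Cm. The third Cm x L library lay only just above the highest L x Cm library. The means were 30.1 ± 13.1 and 12.9 ± 1.78 RPKM (log2 difference 1.07, SE 0.33, limma adjusted p = 0.048). CDKB2;2, its paralog, had 37.7, 36.6 and 23.4 RPKM in Cm x L and 20.9, 13.5 and 11.5 RPKM in L x Cm. Again no library of one cross reached the other. The means were 32.6 ± 7.94 and 15.3 ± 4.95 RPKM (log2 difference 1.05, SE 0.27, limma adjusted p = 0.029).

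CDKB1;2 did not pass the test as reported, but did with array weights (limma adjusted p = 0.015). It had 18.9, 15.3 and 10.0 RPKM in Cm x L and 11.8, 7.49 and 9.05 RPKM in L x Cm, so L x Cm replicate 1 lay above the lowest Cm x L library. Its log2 difference was 0.57 with an SE of 0.28 (limma adjusted p = 0.16). It was the lowest of the B-type kinases in both crosses.

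These calls rested on few libraries, and those of AT1G76540 and AT1G20930 also on the scaling. With quantile normalization AT1G76540 (limma adjusted p = 0.068) and AT1G20930 (0.052) were not called, nor were they with median-of-ratios scaling (0.076 and 0.052). AT1G76540 also lost its call with a pseudocount of 0.1 (0.054), at a minimum mean of 5 RPKM (0.070) and without trend (0.075). AT3G54180 kept its call in all 10 alternatives that kept every library. Its limma adjusted p was 0.046 with quantile normalization and 0.045 with median-of-ratios scaling. It lost its call without Cm x L replicate 1 or 2 or L x Cm replicate 1 or 2 (limma adjusted p = 0.090, 0.064, 0.067 and 0.060). AT1G20930 lost it without Cm x L replicate 1 or 2 or L x Cm replicate 2 or 3 (adjusted p = 0.10, 0.077, 0.093 and 0.064). Of the fits without 1 library, AT1G76540 passed only in that without Cm x L replicate 3 (adjusted p = 0.0033). For it, leaving out Cm x L replicate 1 or 2 or L x Cm replicate 1, 2 or 3 gave adjusted p = 0.15, 0.12, 0.12, 0.14 and 0.071.

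The B-type kinase genes also share sequence with their surroundings. Each ends over a gene on the opposite strand, by 44 bases (AT1G76530 at AT1G76540) to 281 bases (AT2G38630 at AT2G38620). The use of strand in counting is not given in the sources used here, so reads of the shared ends cannot be told apart. None of the 4 neighbours was called. AT3G54190, over 71 bases of AT3G54180, had 17.8, 15.8 and 23.4 RPKM in Cm x L and 11.01, 13.3 and 19.9 in L x Cm. AT1G20925, over 192 bases of AT1G20930, had 2.53, 3.08 and 0.254 against 8.08, 4.81 and 3.59 RPKM, lower in all 3 Cm x L libraries. Between the CDKB1 genes, 16 windows of 36 bases were identical, 1.29% of those of AT3G54180.

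Among the cyclins, none passed as reported (limma, 0 of 5, with 2 at an unadjusted p under 0.05). Other settings on the same 6 libraries called AT1G44110 (adjusted p = 0.031 with quantile normalization and 0.0043 with array weights) and AT2G26760 (0.0068 with array weights). CYCA1;1 had the largest difference of the 10 genes. It stood at 13.4, 11.8 and 4.55 RPKM in Cm x L and 3.34, 3.25 and 4.43 RPKM in L x Cm. Replicates 1 and 2 of Cm x L stood well above the other 4 libraries, which lay between 3.25 and 4.55 RPKM. The means were 9.93 ± 4.73 and 3.67 ± 0.66 RPKM (log2 difference 1.12, SE 0.39, limma adjusted p = 0.068). CYCB1;4 had 14.0, 16.0 and 8.08 RPKM in Cm x L and 8.46, 3.24 and 6.36 RPKM in L x Cm. The crosses overlapped by 1 library on each side, L x Cm replicate 1 and Cm x L replicate 3. Its log2 difference was 0.99 with an SE of 0.37 (limma adjusted p = 0.081).

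CYCB1;1, widely used as a reporter of G2 and mitosis, had 23.3, 19.8 and 14.5 RPKM in Cm x L and 21.8, 10.06 and 15.5 RPKM in L x Cm. The range of L x Cm covered most of that of Cm x L. The log2 difference was 0.31 with an SE of 0.30 (limma adjusted p = 0.46). CYCB1;2 was the 1 gene with a negative difference. It had 23.8, 24.2 and 17.6 RPKM in Cm x L and 46.1, 24.1 and 20.3 RPKM in L x Cm, so L x Cm replicate 1 stood apart while the other 5 libraries lay between 17.6 and 24.2 RPKM. The log2 difference was −0.37 (SE 0.30, limma adjusted p = 0.38) and moved to −0.031 without L x Cm replicate 1 (adjusted p = 0.93). Of its windows of 36 bases, 17.7% also occur in AT1G34460 (CYCB1;5), a paralog at 36.2, 34.6 and 8.40 RPKM in Cm x L and 20.9, 22.05 and 19.3 RPKM in L x Cm. How the authors counted reads shared by the paralogs is not given in the sources used here, so the level of AT5G06150 is uncertain. CYCB2;1 was the lowest gene of the set, with 3.01, 1.82 and 1.596 RPKM in Cm x L and 2.01, 1.00 and 1.52 RPKM in L x Cm. The crosses overlapped, and its log2 difference was 0.32 with an SE of 0.35 (limma adjusted p = 0.52). With quantile normalization that difference was 1.31 and passed the test (adjusted p = 0.031).

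**Figure D2:**
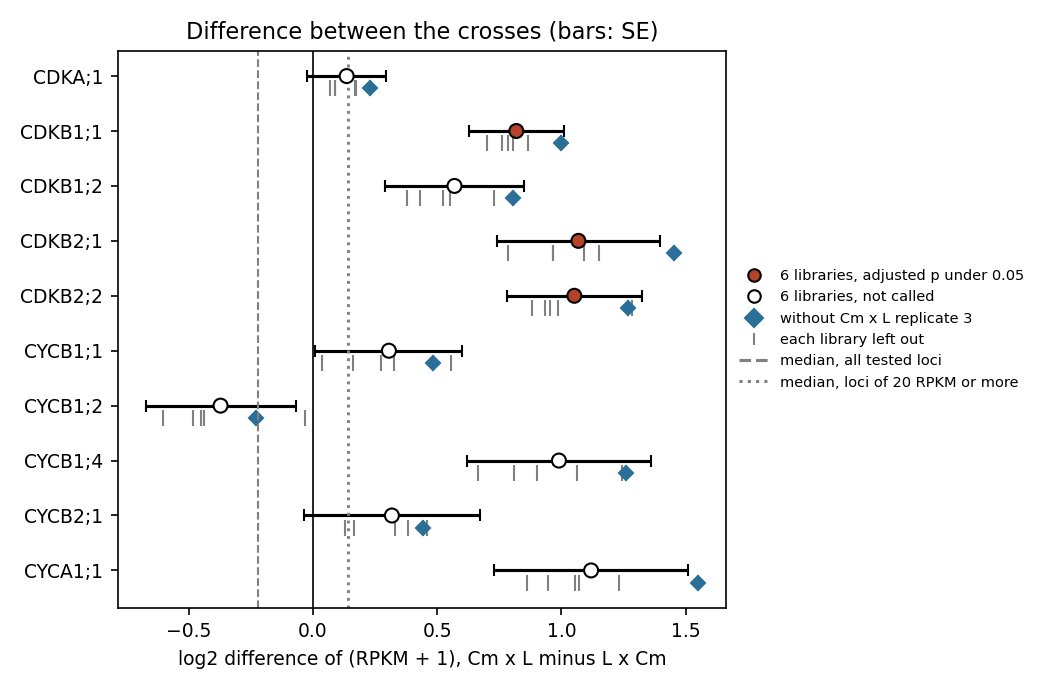
Log2 difference of (RPKM + 1), Cm x L minus L x Cm, for the 10 genes (circles, bars are SE; filled where limma adjusted p was under 0.05), with the values when 1 library was left out (ticks) and without Cm x L replicate 3 (diamonds). Vertical lines mark the medians of all tested loci (−0.22) and of loci at 20 RPKM or more (0.14). CDKB1;1, CDKB2;1 and CDKB2;2 are filled, and CYCB1;2 alone lies below 0.

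The order of levels differed between the crosses in the place of the B-type kinases. In Cm x L the 4 highest means were kinases, led by AT3G54180 at 39.8 RPKM, followed by AT5G06150 at 21.9 RPKM and AT4G37490 at 19.2 RPKM. In L x Cm the highest were AT3G48750 at 30.6 RPKM and AT5G06150 at 30.2 ± 13.9 RPKM, and AT4G37490 at 15.8 RPKM stood above both CDKB2 genes. AT1G44110 and then AT2G17620 closed the order in both crosses. Neighbours in either order overlapped in their libraries, except that AT1G44110 lay above AT2G17620 in all 3 libraries of each cross.

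The genes were also set against the A-type kinase gene of the same library. Relative to AT3G48750, on the log2(RPKM + 1) scale, AT3G54180 stood at 0.36, 0.24 and 0.05 in Cm x L and at −0.36, −0.45 and −0.60 in L x Cm. It was above the A-type kinase gene in every library of one cross and below it in every library of the other. The ratios of AT1G76540, AT1G20930 and AT1G44110 also did not overlap between the crosses, with differences in the mean log2 ratio of 0.93, 0.92 and 0.98. Each of these 4 ratios had p = 0.10 in a 2-sided exact permutation test, the smallest that 3 against 3 libraries allow, and 0.225 after adjustment over the 9 ratios. The other 5 overlapped, with differences from −0.51 for AT5G06150 to 0.85 for AT2G26760.

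Summing genes of a class, a step chosen after the values were seen and given with no test, the 4 B-type kinases held 145, 127 and 79.9 RPKM in Cm x L and 67.5, 55.3 and 55.8 RPKM in L x Cm. The 3 CYCB1 cyclins of the set held 61.0, 60.02 and 40.2 RPKM in Cm x L and 76.3, 37.4 and 42.2 RPKM in L x Cm. CYCB1;3 had 33.3, 31.0 and 10.4 RPKM in Cm x L and 17.4, 10.6 and 7.83 RPKM in L x Cm. It and CYCB1;5, whose levels are given above, are not in this sum. The sums and ratios here hold for the cyclins of the set and not for the whole class. The kinase sum was higher in each Cm x L library than in any L x Cm library, whereas the cyclin sums overlapped. The kinase sum was 2.38, 2.11 and 1.99 times the cyclin sum in Cm x L and 0.885, 1.48 and 1.32 times in L x Cm. These ratios did not overlap either.

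**Figure D3:**
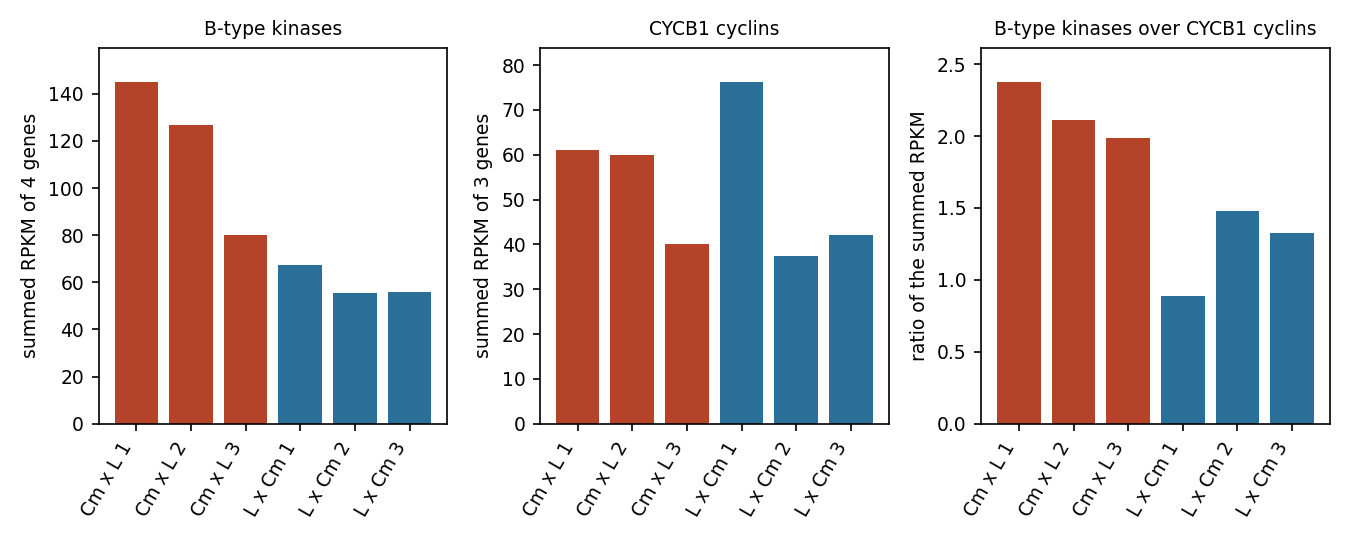
Summed RPKM of the 4 B-type kinase genes (left), of the set's 3 CYCB1 cyclin genes (middle) and the ratio of these sums (right) in each of the 6 libraries, red for Cm x L and blue for L x Cm. The kinase sums and the ratios of the crosses do not overlap, and the cyclin sums do.

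The third library of Cm x L stood apart from its cross. It was the lowest of the 3 for all 10 genes, at 36.03% (AT1G44110) to 81.9% (AT3G48750) of the mean of replicates 1 and 2, with a median of 64.6%. Among loci of at least 20 RPKM the median was 103%, and this library was the lowest of its cross at 39.1% of them. Without it, 6 of the 10 genes were called higher, and 8.34% of all loci tested without it. Leaving out the library that was lowest for all 10 genes had to raise each of their differences. The count of 6 is therefore a description, and it is not on equal terms with the share of all loci. AT2G38620 (limma adjusted p = 0.047), AT2G26760 (adjusted p = 0.035) and AT1G44110 (adjusted p = 0.0070) joined the 3 kinases, and the median log2 difference moved from 0.69 to 0.90.

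Other mitotic genes and D-type cyclins were also low in that library, and DNA replication genes were not. Cm x L replicate 3 was the lowest of its cross for 10 of 11 mitotic spindle and cytokinesis genes, at a median of 32.2% of the mean of replicates 1 and 2, and for 7 of 7 other B-type cyclins, at 64.1%. The low level was not confined to mitotic genes. This library was also the lowest for 7 of 10 D-type cyclins, at 64.4%. It was the lowest for 3 of 5 activators of the anaphase-promoting complex, at 73.6%. The remaining lists had medians from 91.8% (E2F and RBR genes) to 110% (other A-type cyclins). KN, the syntaxin of the cell plate, had 94.9, 95.4 and 8.94 RPKM in Cm x L, and MAD2, of the spindle checkpoint, 92.4, 73.8 and 26.3 RPKM. For 10 of 10 DNA replication genes, in contrast, this library was the highest of its cross, at a median of 123%, while it was the highest at 46.3% of loci of at least 20 RPKM. The replicative helicase subunit MCM3 had 16.7, 19.9 and 29.0 RPKM. KN, MAD2 and MCM3 were chosen after their values were seen, and this is a description of 1 library.

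**Figure D4:**
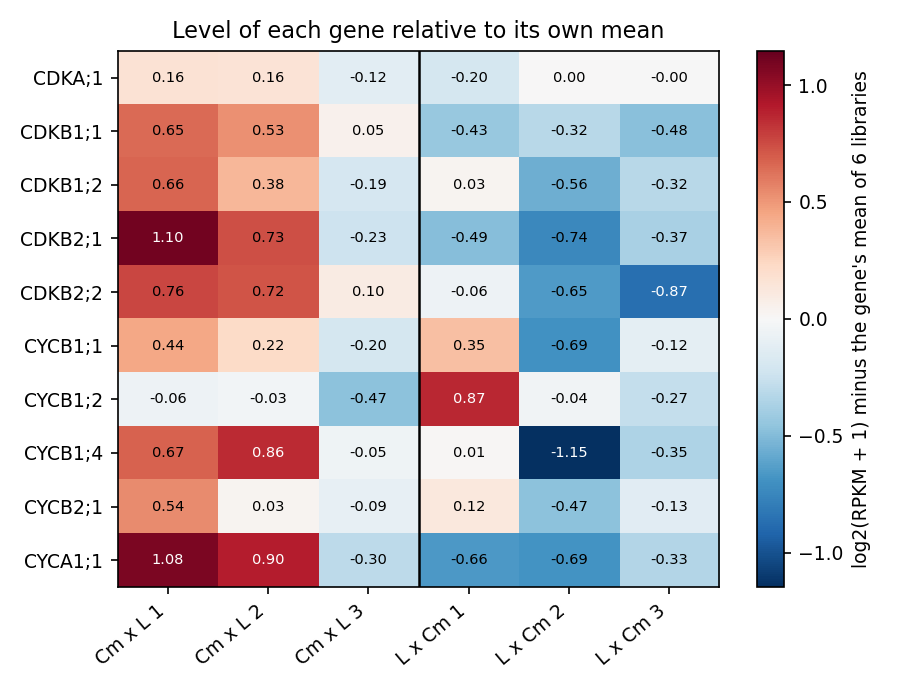
Level of each of the 10 genes (rows) in each library (columns) as log2(RPKM + 1) minus the gene's own mean over the 6 libraries, with red above and blue below the mean and the value printed in each cell. Cm x L replicates 1 and 2 are red for 9 of the 10 genes, replicate 3 is blue for 8, and CYCB1;2 is highest in L x Cm replicate 1.

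Tissue markers also differed between libraries. All 10 endosperm markers averaged at least 1 RPKM, 1 called higher in Cm x L and 2 lower, summing to 273 to 391 RPKM in Cm x L and 360 to 442 in L x Cm. MINI3, of the HAIKU seed size pathway, had 23.2 ± 17.5 against 117 ± 10.7 RPKM (log2 difference −2.52, limma adjusted p = 0.0089), IKU2 of the same pathway 1.42 ± 1.39 against 5.36 ± 1.52 RPKM (adjusted p = 0.042), and FIS2, a Polycomb subunit, 36.1 ± 6.03 against 23.1 ± 1.44 RPKM (adjusted p = 0.037). The 9 seed coat markers, of which 1 was called lower in Cm x L and 0 higher, summed to 221, 292 and 743 RPKM in Cm x L and to 650, 816 and 980 RPKM in L x Cm. Cm x L replicate 3 had a seed coat sum within the range of L x Cm. The 9 pollen markers, 4 of them called lower, summed to 70.7 to 957 RPKM in Cm x L and 926 to 3146 RPKM in L x Cm, highest in replicate 2 of each cross. The 13 embryo markers, 7 called lower and 1 higher, summed to 131 to 207 RPKM in Cm x L and 155 to 197 RPKM in L x Cm. Most of the Cm x L sum was LEC1, the 1 called higher, at 157, 151 and 69.5 RPKM against 27.2, 60.01 and 46.7 RPKM in L x Cm. The 7 lower ones included STM (1.39 ± 0.80 against 17.1 ± 6.85 RPKM), WOX9 (2.60 ± 0.80 against 19.9 ± 7.07 RPKM) and CUC3 (0.38 ± 0.37 against 11.2 ± 6.01 RPKM). These markers were named after their values were seen. No marker was at 0 in all libraries. The part of these tissues in the kinase and cyclin levels was not tested.

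The rest of the cell cycle machinery was read from 10 lists of 84 genes, 83 of them tested, of which 7 were called higher in Cm x L and 7 lower, beside the 6.73% and 18.3% of all tested loci. Differences between lists were not tested. CKS2 (AT2G27970), a small protein that docks the kinase on its substrates, had 144, 99.8 and 47.9 RPKM in Cm x L and 35.5, 24.6 and 25.5 RPKM in L x Cm. Every Cm x L library was above every L x Cm library (log2 difference 1.62, SE 0.37, limma adjusted p = 0.021), whereas its paralog CKS1, named after its values were seen, had means of 28.8 and 30.2 RPKM (adjusted p = 0.79). With CYCH;1, the cyclin of the CDK-activating kinase (21.9 ± 1.98 against 14.8 ± 0.59 RPKM, adjusted p = 0.047), 2 of 7 genes of this list were called. Of 7 other B-type cyclins, CYCB2;4 (13.1 ± 1.64 against 5.64 ± 2.55 RPKM, log2 difference 1.15, adjusted p = 0.031) and CYCB3;1 (9.82 ± 0.35 against 3.51 ± 1.32 RPKM, 1.31, adjusted p = 0.019) were higher and 0 lower.

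Of the other A-type cyclins, 1 of 8 tested was higher and 1 lower. CYCA2;1 had 9.75 ± 3.72 against 3.24 ± 1.55 RPKM (log2 difference 1.35, limma adjusted p = 0.047). CYCA2;3, a gene linked to endoreduplication, had 0.98 ± 0.46 against 7.11 ± 1.91 RPKM (−2.04, adjusted p = 0.0090). Among the three-repeat MYB factors, MYB3R2 was the 1 of 5 called (32.5 ± 2.21 against 22.5 ± 2.03 RPKM, 0.51, adjusted p = 0.045). MYB3R1 and MYB3R4, activators of mitotic genes that were named after their values were seen, had adjusted p = 0.073 and 0.21 and differences of 0.52 and 0.59. PCNA1, the replication clamp, was the 1 of 10 replication genes called (0.55, adjusted p = 0.034). None of 11 mitotic spindle and cytokinesis genes and none of 9 E2F and RBR genes was called by limma, with 2 and 4 at an unadjusted p under 0.05. The spindle list had a median log2 difference of 0.59 and the E2F list one of −0.03.

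D-type cyclins link growth signals to entry into the cycle. Of 10 genes, 4 fell and 0 rose in Cm x L relative to L x Cm (limma, with 5 at an unadjusted p under 0.05), but 0 were called without Cm x L replicate 1 or without L x Cm replicate 2, and 2 after quantile normalization. CYCD4;2 had 38.3, 42.7 and 43.9 RPKM in Cm x L and 67.2, 55.8 and 64.2 RPKM in L x Cm (−0.57 on the log2 scale, SE 0.15, adjusted p = 0.031). CYCD4;1 had 15.3 ± 2.29 against 24.7 ± 2.27 RPKM (−0.66, adjusted p = 0.034). CYCD5;1 (1.84 ± 0.88 against 6.26 ± 3.01 RPKM) and CYCD7;1 (0.48 ± 0.53 against 10.3 ± 9.88 RPKM) were low. CYCD7;1 was highest in replicate 2 of each cross, at 1.06 and 21.5 RPKM, as was the pollen sum, and the part of pollen in this value was not tested. Lower calls were made at 33.2% of loci with a mean of 1 to 5 RPKM, 13.4% between 5 and 20 RPKM and 6.7% from 20 RPKM. The inhibitor KRP6 (6.77 ± 1.89 against 14.9 ± 5.17 RPKM, −1.01, adjusted p = 0.043) was the 1 called of 11 inhibitor genes. CCS52A1, an activator of the ubiquitin ligase that destroys mitotic cyclins, was lower at 39.5, 33.6 and 24.9 RPKM in Cm x L and 56.3, 57.2 and 50.2 RPKM in L x Cm (−0.74, SE 0.19, adjusted p = 0.030). Of these 14 calls, that of CYCA2;3 passed in all 6 fits that left out a library, those of CYCH;1 and MYB3R2 in 0, and the others in 1 to 4. Without Cm x L replicate 1 or 2, 0 list genes were called higher, and without Cm x L replicate 3 there were 14.

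**Figure D5:**
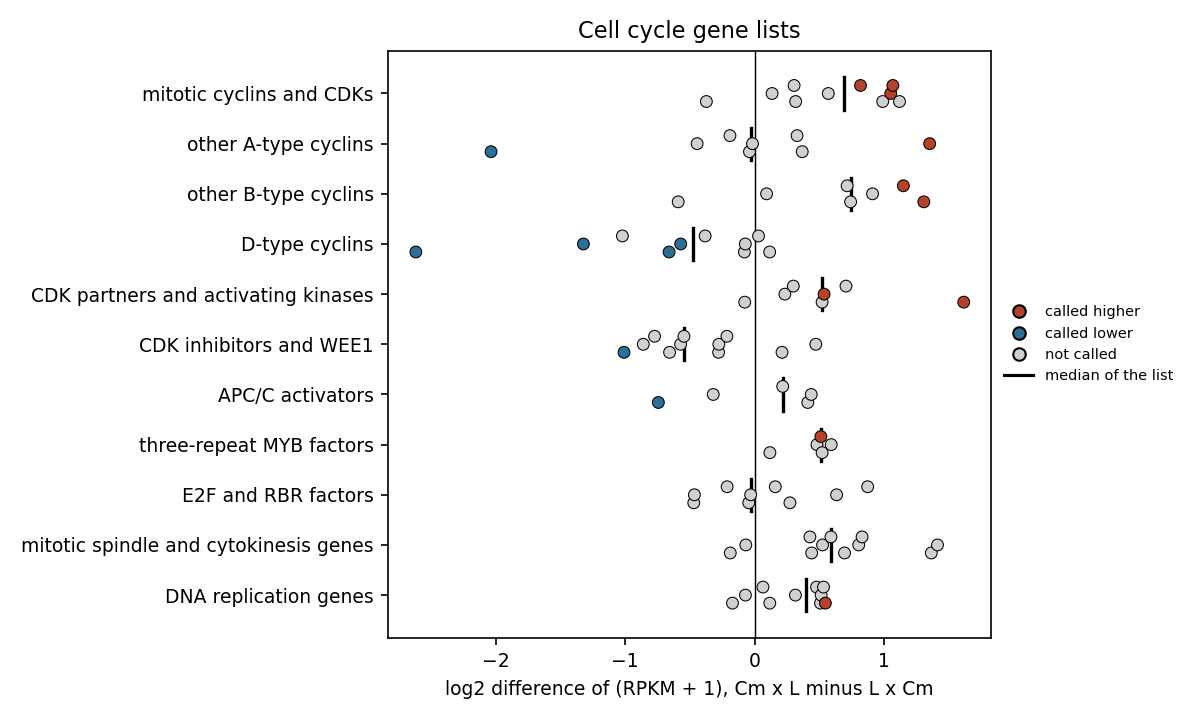
Log2 difference of (RPKM + 1), Cm x L minus L x Cm, for each tested gene (points) of the 10 mitotic cyclins and kinases (top row) and of the 10 other cell cycle lists, with the median of each list as a black bar. Red and blue points were called higher and lower by limma. The D-type cyclins hold 4 blue points and 0 red ones.

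The profile of the 10 genes over the 6 libraries, as the mean of their centred log2 values, was 0.60, 0.45 and −0.15 in Cm x L and −0.05, −0.53 and −0.32 in L x Cm. AT2G38620 followed it most closely, with a root mean square difference of 0.054, and AT5G06150 least, with 0.55. Of 16416 other protein-coding loci with at least 5 RPKM, those most like it were AT3G03773, AT1G34630, EHD2 (AT4G05520), AT1G34420 and SURF1 (AT3G17910), with differences of 0.065 to 0.076 against a median of 0.48. They followed the mean of the set more closely than 9 of its own 10 genes did. These loci were picked for this closeness, however, and the 10 genes were not.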

How the data were processed

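RNA of purified endosperm nuclei was sequenced as poly(A) libraries, and the deposited table gives RPKM per locus and library, summed over alleles, as the authors computed it. Reads were aligned with TopHat2 2.1.0 to TAIR10, per the submitters' processing notes. How reads were counted, and on which strand, is not given in the sources used here. All 6 value columns were matched to samples by name, and 0 columns were left unmapped. Log2(RPKM + 1) was compared between the crosses, as Cm x L minus L x Cm, with limma 3.58.1 (R 4.3.3, empirical Bayes with trend, 2-sided) over 26620 loci that averaged 1 RPKM or more. The p-values were adjusted by Benjamini-Hochberg at 0.05, and the procedure was tested on simulated data. RPKM cannot show a change shared by all genes, and a pseudocount understates changes of low genes.

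The RPKM of pseudogenes with few reads were multiples of 1 read for 99.5% to 99.8% of values, within 0.02 read. These steps gave the depth, at which 1 read in a gene of 1 kilobase is worth 0.0342 to 0.0472 RPKM. Because the table is RPKM, no count model was used.

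The 10 genes and all lists were chosen with earlier results of these data known. Named from the cell cycle lists were the genes called, at most 6 per list by smallest p, and as most alike the 5 protein-coding loci of at least 5 RPKM with the smallest root mean square difference. Of 135 listed loci, 130 matched the annotation by name. Promoters were read from TAIR10.1, whereas the deposited table holds no coordinates. The promoter of 1 gene and its matches are not reported here, and those printed are a selection. Searches of protein sequences were not run. Figures and summaries were made with Python 3.11.15. Alternatives were other pseudocounts, filters, scalings and limma settings, a replicate block, and leaving out each library.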

Additional observations from a re-analysis of the deposited data

How the results depend on the processing

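The median log2 difference of the 10 genes stayed positive under every alternative tried, from 0.54 to 0.90, and 0 of them were called lower. Their count of higher calls, 3 as reported, was 1 with a minimum mean of 20 RPKM, 1 with median-of-ratios scaling and 6 with array weights, and ranged from 0 to 6 when 1 library was left out. It was 3 with quantile normalization, but with other genes: AT3G54180, AT2G17620 and AT1G44110. CDKA;1 changed sign with median-of-ratios scaling (−0.015). Over all loci, 1792 higher calls became 911 at 20 RPKM, 1091 with median-of-ratios scaling, 3924 with array weights and 369 to 2289 without 1 library. The 4870 lower calls became 1322 at 5 RPKM, 375 at 20 RPKM, 1739 with quantile normalization, 7688 with array weights and 1291 to 5263 without 1 library. Higher calls in the cell cycle lists, 7 as reported, were 4 with a pseudocount of 0.1, with no filter and at 5 RPKM, 2 at 20 RPKM and with median-of-ratios scaling, 3 without trend, 25 with array weights and 0 to 14 without 1 library. Lower calls there, also 7, were 3 at 5 RPKM and without trend, 2 at 20 RPKM, 11 with array weights and 1 to 7 without 1 library. Higher minimum means test fewer genes, but AT1G76540 and AT1G20930 were still tested at 20 RPKM. They missed the threshold there (limma adjusted p = 0.082 and 0.051). The cause of the changes was not tested. Quantile normalization moved the median of all loci by 0.26 and median-of-ratios scaling by −0.14. The share of calls that were higher went from 26.9% to 54.3% and 16.2%. Deviations from the cross means correlated at r of 0.081, 0.15 and 0.20 between same-numbered libraries. Between libraries of unlike number, r was −0.23 to 0.12. Whether the numbers pair the libraries cannot be settled from these values. With a replicate block, 3 of the 10 genes and 1963 loci were called higher and 4887 lower. Precision is limited by 3 libraries a cross, and for AT2G17620 by its 36 reads or more.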

Other observations

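The AACGG core was also counted in the promoters of the other lists. It was present at least once in 8 of 11 mitotic spindle and cytokinesis genes, 3 of 7 other B-type cyclins, 6 of 11 inhibitor genes, 1 of 10 D-type cyclins, 1 of 10 DNA replication genes and 0 of 5 activators of the anaphase-promoting complex, against 20.6% of all protein-coding promoters. The remaining lists had it in 3 of 5 three-repeat MYB factors, 3 of 9 other A-type cyclins, 3 of 9 E2F and RBR genes and 1 of 7 CDK partners and activating kinases. The locus with the profile most like the mean of the 10 genes, AT3G03773, had 38.4, 34.8 and 24.5 RPKM in Cm x L and 24.0, 19.1 and 20.13 RPKM in L x Cm.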
